A study of Mus musculus with 2 samples.

Results

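Rora, Ahr, Maf, Batf, Irf4 and Stat3 encode transcription factors that support the interleukin-17 programme of lymphocytes, and their RNA and chromatin were followed here in nuclei from the mouse intestine. They were chosen by name as 6 of the 32285 gene rows, together with the accessibility peaks within 50 kb of the start-site interval that the files give for each gene. All 6 were found in both libraries, and their levels were taken in 3 gates of nuclei. The gates are Cd3-positive Foxp3-positive nuclei (regulatory T-cell type), Cd3-positive Foxp3-negative nuclei (no Foxp3 transcript counted) and Cd3-negative nuclei with a transcript of Kit or Il1r1. A regulatory T-cell nucleus in which no Foxp3 transcript was caught falls in the Foxp3-negative gate. The Cd3-negative gate carried markers of group 3 innate lymphoid cells, a lymphocyte class without an antigen receptor.

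In T cells, STAT3 is switched on by cytokines such as IL-6, IL-21 and IL-23. BATF and IRF4 bind DNA together after antigen receptor signalling and open sites used later by other factors of the programme. RORα, the product of Rora, is a nuclear receptor that promotes the programme and is also needed by several innate lymphoid lineages. AHR is a sensor of dietary and microbial ligands that maintains intestinal lymphocytes and IL-22 production, and c-MAF supports IL-10 production and intestinal regulatory T cells.

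The knockout library came from CD4creZfp362flox/flox mice and the control library from Zfp362flox/flox mice, all 26 to 33 weeks old. The floxed alleles were therefore shared by both groups, and the Cre recombinase, driven by Cd4 regulatory sequence, was what set them apart. Zfp362 encodes a zinc-finger protein, and the series title concerns whether its part in inflammatory T-cell responses depends on Th17 differentiation. Colon and small intestine were pooled, CD4+CD44+ effector T cells without CD8a, CD11c, CD45R and F4/80 were sorted, and RNA and accessible DNA were read from the same nuclei (10x Multiome). There was 1 library per genotype, made from several mice, so no test between genotypes exists. Intervals in brackets are at 95% and take in the counting error alone.

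The knockout library held 2391 nuclei with 9348999 unique molecular identifiers (UMIs, counted RNA molecules), and the control library 4223 nuclei with 10803590 UMIs. After filtering, 2346 knockout and 4176 control nuclei were kept. The Foxp3-positive gate took 220 knockout and 358 control nuclei, the Foxp3-negative gate 1164 knockout and 2111 control nuclei, and the Cd3-negative gate 614 knockout and 1022 control nuclei. Although the sort was for CD4+ T cells, the Cd3-negative gate thus made up 26.2% of kept knockout and 24.5% of kept control nuclei. The libraries shared 11 barcodes. Deep nuclei, those of over 4196 UMIs, gave 88.6% of the UMIs of the Foxp3-positive gate in the knockout library and 60.1% in the control library, and several results below are also given without them. Of Cd3-positive nuclei, 32.1% in the knockout library and 19.9% in the control library also held a Kit or Il1r1 UMI. Zfp362 itself was too sparse to check the genotype firmly, with 33 UMIs in knockout and 54 UMIs in control Foxp3-negative nuclei (6.61 CPM, 4.55 to 9.28, and 9.35 CPM, 7.02 to 12.2), and a gene-level count does not show whether the floxed part was deleted.

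Rora RNA was highest in the Cd3-negative gate of both libraries. Levels are summed UMIs of a gene scaled to a total of 1000000 UMIs in the same gate and library (CPM), which are not corrected for gene length and are therefore compared within a gene only. In the knockout library Rora reached 4597 CPM (4491 to 4705) in Cd3-negative nuclei, against 3111 CPM (3036 to 3187) in Foxp3-positive and 2855 CPM (2809 to 2903) in Foxp3-negative nuclei. In the control library it reached 4235 CPM (4151 to 4321) in Cd3-negative nuclei, against 2843 CPM (2760 to 2929) in Foxp3-positive and 2310 CPM (2271 to 2350) in Foxp3-negative nuclei. No intervals overlapped, and the order of the gates was the same in both libraries. Without the deep nuclei the T-cell gates changed order in the knockout library, with Rora at 2472 CPM in Foxp3-positive and 2555 CPM in Foxp3-negative nuclei, while in the control library it was at 2892 CPM in Foxp3-positive and 2171 CPM in Foxp3-negative nuclei. The log2 ratio of Cd3-negative over Foxp3-negative nuclei was 0.69 (0.65 to 0.73) in the knockout and 0.87 (0.84 to 0.91) in the control library, short of the value of 1 in both libraries that was used as the limit between gates. After every nucleus was thinned to 1000 UMIs, a Rora UMI was seen in 93.8% of knockout and 93.2% of control Cd3-negative nuclei, and in 82.4% of knockout and 75.4% of control Foxp3-negative nuclei. Unthinned shares were 97.6% of knockout and 97.1% of control Cd3-negative nuclei, and 91.8% of knockout and 84.9% of control Foxp3-negative nuclei. The median thinned nucleus held 4 Rora UMIs in the Cd3-negative gate and 2 in the Foxp3-negative gate, in either library.

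Stat3, Ahr and Maf ran the other way. Stat3, the signal transducer downstream of IL-6 and IL-23 receptors, stood at 737 CPM (695 to 781) in Cd3-negative nuclei of the knockout library, against 1378 CPM (1329 to 1430) in Foxp3-positive and 1173 CPM (1143 to 1203) in Foxp3-negative nuclei. In the control library it stood at 627 CPM (595 to 661) in Cd3-negative nuclei, against 1224 CPM (1169 to 1280) in Foxp3-positive and 1053 CPM (1027 to 1080) in Foxp3-negative nuclei. Foxp3-positive nuclei were highest and Cd3-negative nuclei lowest in each library, with no overlap of intervals. Without the deep nuclei Foxp3-positive Stat3 was at 1917 CPM in the knockout and 1554 CPM in the control library, in the same order of gates. The log2 ratio of Cd3-negative over Foxp3-negative nuclei was -0.67 (-0.76 to -0.58) in the knockout and -0.75 (-0.83 to -0.66) in the control library.

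Maf had the same order of gates with a wider spread. In the knockout library it was at 260 CPM (235 to 287) in Cd3-negative nuclei, against 689 CPM (654 to 726) in Foxp3-positive and 554 CPM (533 to 575) in Foxp3-negative nuclei. In the control library the levels were 312 CPM (289 to 336) in Cd3-negative, 791 CPM (747 to 837) in Foxp3-positive and 627 CPM (606 to 647) in Foxp3-negative nuclei. Cd3-negative over Foxp3-negative, Maf had a log2 ratio of -1.09 (-1.24 to -0.94) in the knockout and -1.01 (-1.12 to -0.89) in the control library. These values lay just past the limit of 1, and centring on the median gene brought the control value to -0.91. Ahr was sparser. It was at 87.0 CPM (72.9 to 103) in knockout Cd3-negative nuclei, against 128 CPM (113 to 144) in knockout Foxp3-positive and 124 CPM (114 to 134) in knockout Foxp3-negative nuclei. Control nuclei had 67.4 CPM (57.1 to 79.0) in the Cd3-negative, 115 CPM (98.5 to 133) in the Foxp3-positive and 121 CPM (112 to 130) in the Foxp3-negative gate. The T-cell gates overlapped for Ahr in both libraries, although without the deep nuclei knockout Ahr was at 189 CPM in Foxp3-positive (45 UMIs) and 128 CPM in Foxp3-negative nuclei. The Cd3-negative gate lay below them in both libraries, with log2 ratios over Foxp3-negative nuclei of -0.50 (-0.79 to -0.24) in the knockout and -0.84 (-1.11 to -0.59) in the control library.

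Irf4 and Batf, whose proteins act as partners in T cells, did not follow each other in the Cd3-negative gate. Irf4 was nearly absent there. It had 34 UMIs in 614 knockout nuclei (22.1 CPM, 15.3 to 30.8) and 15 UMIs in 1022 control nuclei (6.65 CPM, 3.72 to 11.0). In Foxp3-positive nuclei Irf4 was at 66.4 CPM (55.8 to 78.4) in the knockout and 97.2 CPM (82.2 to 114) in the control library, and in Foxp3-negative nuclei at 88.5 CPM (80.5 to 97.2) in the knockout and 81.7 CPM (74.5 to 89.4) in the control library. The log2 ratio of Cd3-negative over Foxp3-negative nuclei was -1.98 (-2.55 to -1.50) in the knockout and -3.57 (-4.47 to -2.88) in the control library. After thinning, 0.998% of knockout and 0.901% of control Cd3-negative nuclei held an Irf4 UMI, against 6.84% of knockout and 6.21% of control Foxp3-negative nuclei. Unthinned, the shares were 3.09% of knockout and 1.27% of control Cd3-negative nuclei, and 19.5% of knockout and 13.5% of control Foxp3-negative nuclei.

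The residue of Irf4 in the Cd3-negative gate can be set beside RNA of T-cell genes that the gate did not use. Trac, Cd5, Cd6, Cd28, Themis and Trat1 stood in Cd3-negative nuclei at 11.2% to 17.2% of their Foxp3-negative level in the knockout library and at 6.51% to 11.5% in the control library. Irf4 stood at 24.9% of its Foxp3-negative level in the knockout library and at 8.14% in the control library, the control figure lying inside the range of the T-cell markers. Whether free RNA or missed T cells account for the Irf4 UMIs was not tested. No clean population without the 6 genes was at hand, since the 26 knockout and 12 control nuclei with epithelial or stromal markers (median 17833 and 5778 UMIs) held 54.8 CPM and 37.1 CPM of Irf4.

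Batf, in contrast, was at 104 CPM (88.4 to 121) in knockout Cd3-negative nuclei, against 95.5 CPM (82.7 to 110) in knockout Foxp3-positive and 92.7 CPM (84.5 to 102) in knockout Foxp3-negative nuclei, with all 3 intervals overlapping. In the control library it was at 71.4 CPM (60.8 to 83.3) in Cd3-negative nuclei, against 118 CPM (101 to 137) in Foxp3-positive and 105 CPM (96.7 to 114) in Foxp3-negative nuclei. The Cd3-negative gate was therefore the lowest for Batf in the control library but not in the knockout library, with log2 ratios over Foxp3-negative nuclei of 0.17 (-0.11 to 0.43) in the knockout library and -0.55 (-0.82 to -0.30) in the control library. Without the deep nuclei Batf in the knockout library was at 97.6 CPM in Cd3-negative nuclei (116 UMIs) and 102 CPM in Foxp3-negative nuclei (190 UMIs), too close to rank. Foxp3-positive nuclei had 143 CPM, from 34 UMIs. The knockout ratio over Foxp3-negative nuclei kept its sign in 10 of 11 alternatives and lay between -0.06 and 0.44.

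**Figure D1:**
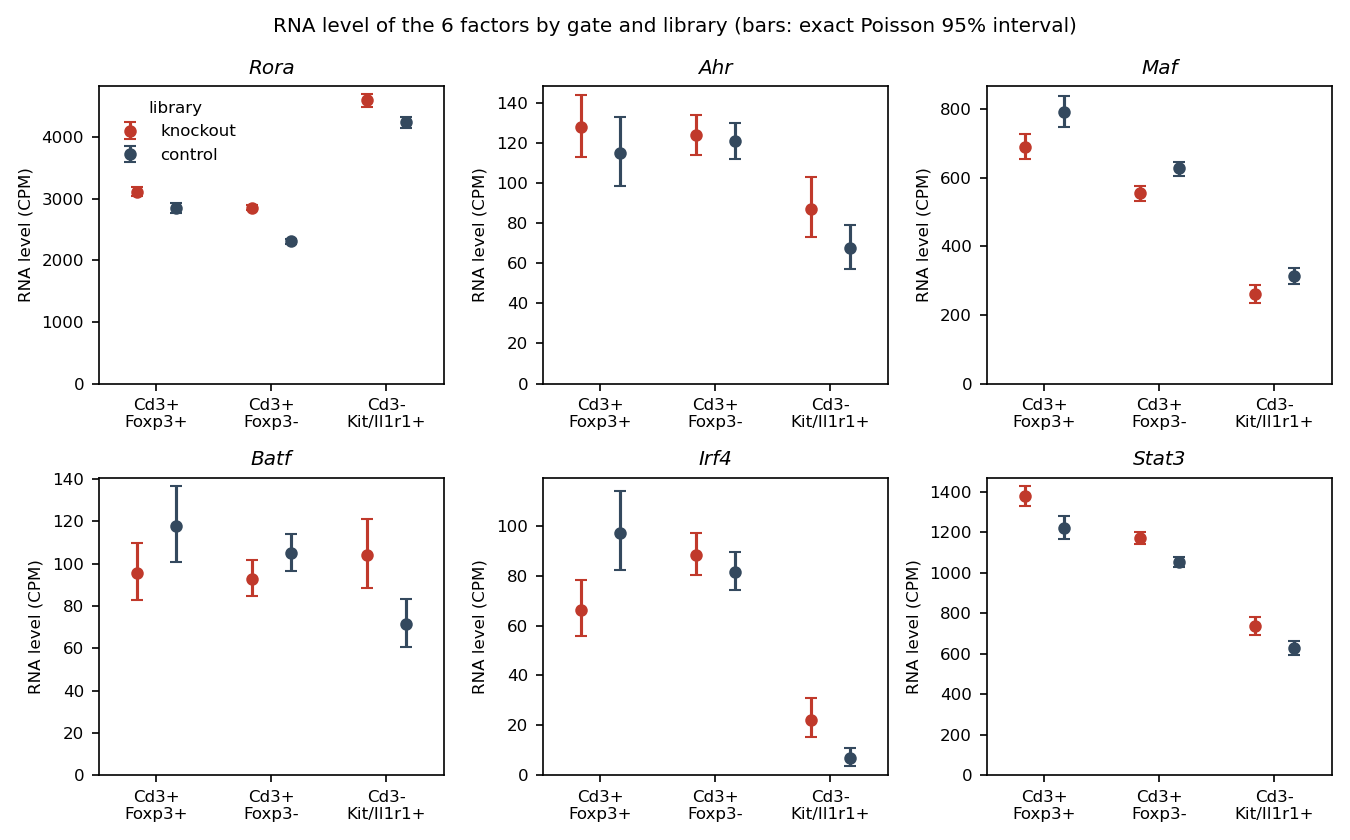
RNA level in CPM (vertical axes, starting at 0) of each of the 6 factors in the 3 gates, knockout in red and control in dark blue, 1 library each; points are summed levels and bars exact Poisson 95% intervals. Rora is highest in the Cd3-negative gate (4597 CPM in knockout and 4235 CPM in control nuclei), where Irf4 falls to 22.1 CPM in knockout and 6.65 CPM in control nuclei.

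Counted by the limit, 2 of the 6 factors (Maf and Irf4) were lower and none was higher in Cd3-negative than in Foxp3-negative nuclei of both libraries. Over all 9038 genes with at least 100 UMIs, 7.24% were lower and 8.14% higher by the same limit. Against Foxp3-positive nuclei Maf and Irf4 were again the factors past the limit, where 6.59% of 7179 genes were lower and 8.08% higher. Between Foxp3-positive and Foxp3-negative nuclei none of the 6 passed it in either direction, where 0.158% of 8869 genes were higher and 0.180% lower. The Foxp3-negative gate can hold regulatory T-cell nuclei without a caught Foxp3 UMI, which would narrow this comparison. Ikzf2, a regulatory T-cell marker, was at 1443 CPM in knockout and 1265 CPM in control Foxp3-negative nuclei. In Foxp3-positive nuclei it was at 2152 CPM in the knockout and 2215 CPM in the control library. Within that T-cell comparison Maf still showed a log2 ratio of 0.32 (0.22 to 0.41) in the knockout and 0.34 (0.24 to 0.43) in the control library, which became 0.65 in the knockout and 0.72 in the control library without the deep nuclei. Stat3 showed 0.23 (0.17 to 0.30) in the knockout and 0.22 (0.14 to 0.29) in the control library. Irf4 differed in sign between the libraries there, at -0.41 (-0.70 to -0.14) in the knockout and 0.25 (-0.03 to 0.52) in the control library. Seen per nucleus at 1000 UMIs, 3 or more of the 6 factors were detected together in 38.9% of knockout and 40.1% of control Foxp3-positive nuclei. The share was 27.5% of knockout and 27.3% of control nuclei in the Foxp3-negative gate, and 17.1% of knockout and 12.5% of control nuclei in the Cd3-negative gate.

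Finer states were gated on a UMI of named genes, giving 13 states of at least 20 nuclei in each library. Of these, 10 are shown and described here. Rora stood at 3270 CPM in knockout and 2847 CPM in control Foxp3-negative nuclei with Il17a, Il17f or Il22, and near that, at 3303 CPM in knockout and 3040 CPM in control nuclei, in those with type 2 genes (Il4, Il5, Il13 or Il1rl1). Foxp3-negative nuclei with Ifng or Tbx21, genes of type 1 cells, had less Rora, 2170 CPM in the knockout and 1845 CPM in the control library. Foxp3-positive nuclei with Il1rl1 or Klrg1 held 3137 CPM in the knockout and 3351 CPM in the control library. A high Rora level was thus shared by type 17, type 2 and these Foxp3-positive states.

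Stat3 was highest in Foxp3-positive nuclei with Il1rl1 or Klrg1, genes of tissue-type regulatory T cells, at 1702 CPM in knockout and 1615 CPM in control nuclei. Ahr also had its highest values there, but other states lay within counting error. In the knockout library it was at 175 CPM (146 to 207), against 161 CPM (132 to 195) in Foxp3-negative nuclei of no named state. In the control library it was at 144 CPM (116 to 176), against 143 CPM (121 to 168) in Foxp3-negative nuclei with Ifng or Tbx21. Maf was highest in the remaining Foxp3-positive nuclei, at 1051 CPM in the knockout and 950 CPM in the control library, and stayed between 249 and 429 CPM in all 4 Cd3-negative states of both libraries. Irf4 lay between 0 and 27.3 CPM in the Cd3-negative states and between 58.8 and 123 CPM in the 6 T-cell states shown. Batf had no state that led in both libraries.

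**Figure D2:**
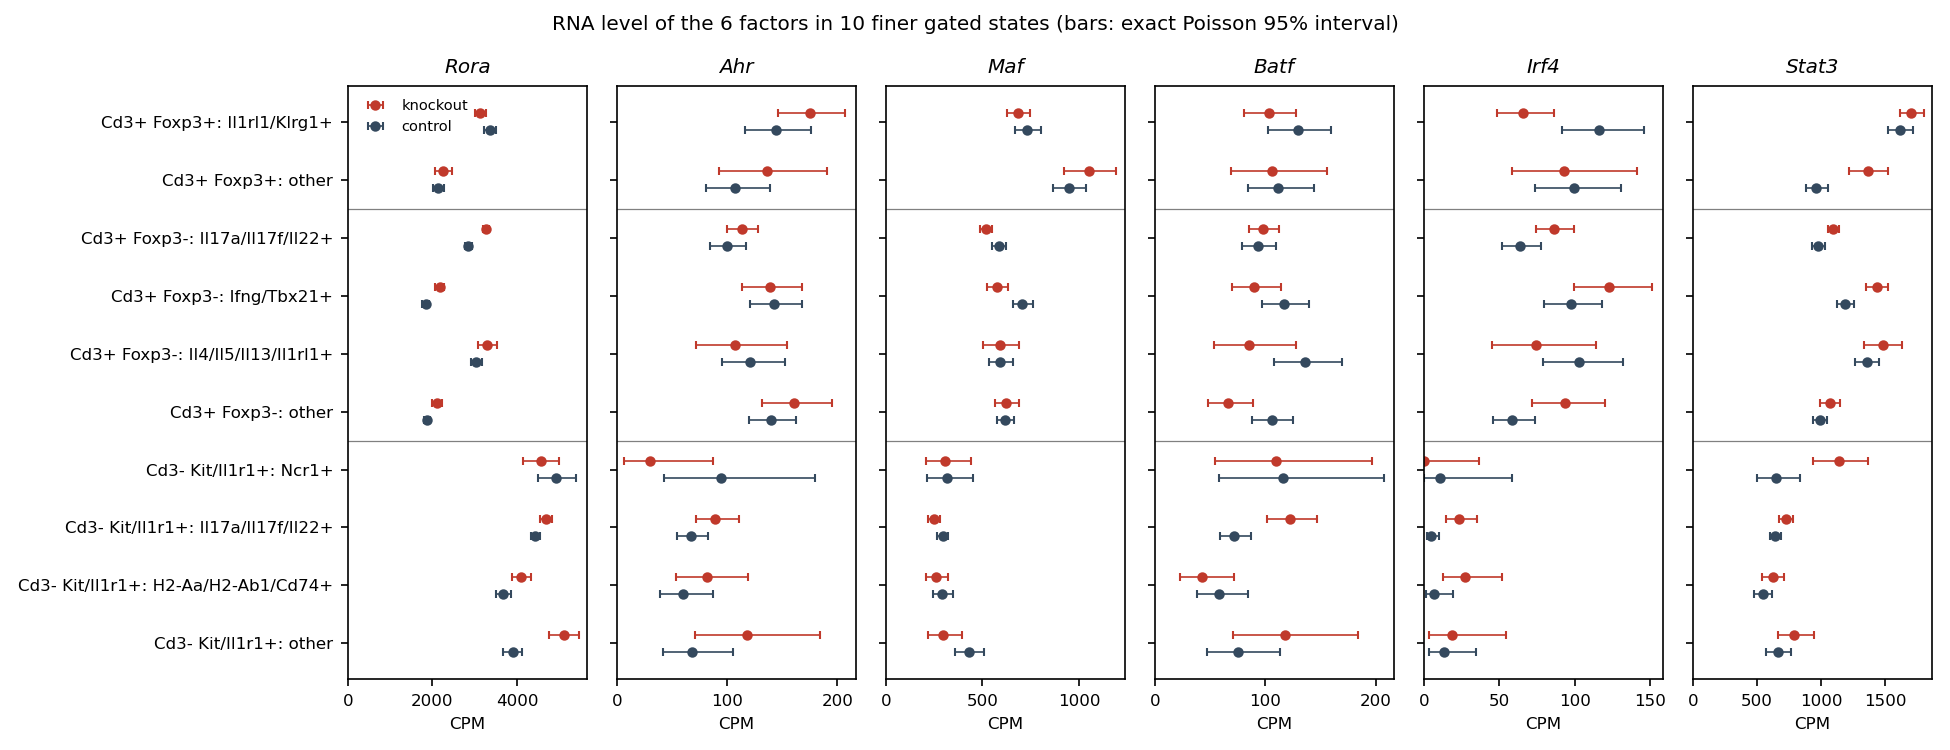
RNA level in CPM (horizontal axes, starting at 0) of the 6 factors in 10 finer states, with the states down the page and knockout (red) drawn above control (dark blue); bars are exact Poisson 95% intervals. Rora lies at 4687 CPM in knockout and 4435 CPM in control Cd3-negative nuclei with Il17a, Il17f or Il22, and Irf4 stays at or below 27.3 CPM in every Cd3-negative state.

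Across the 13 states the genes that varied most like each factor were ranked among 9609 genes by the lower of the 2 libraries' Pearson correlations of log2(CPM + 10). The states of a library share depth and free RNA, and the values describe them without a test. They include T-cell and Cd3-negative states, so r also takes in the contrast between these gates described above. Nfkbia, an inhibitor of NF-kB, was nearest to Rora, with r of 0.94 in the knockout and 0.96 in the control library, followed by Zfp36l1 and Gm7247. Trac, the constant gene of the T-cell receptor alpha chain, was nearest to Irf4, with r of 0.95 in the knockout and 0.96 in the control library, followed by 4930417O13Rik and Aopep. Vps54, Ccr2 and Wnk1 were nearest to Maf, and Mrpl33, Samsn1 and Ndfip1 to Stat3. Adam19, Ifi27 and Apaf1 were nearest to Ahr. For Batf the nearest gene, Zcchc18, reached only 0.63 in the knockout and 0.75 in the control library, with Pex19 and Cish next. Among the factors themselves, Irf4 and Maf ran together, with r of 0.77 in the knockout and 0.93 in the control library. Maf and Stat3 did so with r of 0.81 in the knockout and 0.78 in the control library. Irf4 and Rora ran opposite, with r of -0.74 in the knockout and -0.70 in the control library.

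The genes around the 6 factors were read from lists of partners, upstream receptors, programme genes and targets, some genes being in more than 1 list. Of 17 genes reported as targets of IRF4 with BATF or of MAF, 13 were lower and 2 higher in Cd3-negative than in Foxp3-negative nuclei of each library. By the same limit in 1 library, 10.2% of all genes were lower and 9.69% higher in the knockout, and 11.8% lower and 10.7% higher in the control library, shares that also stand beside the other lists. The list's median log2 ratio was -1.50 in the knockout and -1.48 in the control library, beside -0.09 over all genes in each. Ctla4, a co-inhibitory receptor, was at 217 CPM in Cd3-negative and 1250 CPM in Foxp3-negative nuclei of the knockout library, and at 141 CPM in Cd3-negative and 1279 CPM in Foxp3-negative nuclei of the control library. Il10, the anti-inflammatory cytokine, was at 44.1 CPM in Cd3-negative and 161 CPM in Foxp3-negative nuclei of the knockout library, against 16.8 CPM in Cd3-negative and 207 CPM in Foxp3-negative nuclei of the control library. Il21 had no UMI in the Cd3-negative gate of either library and 54 UMIs in knockout and 70 UMIs in control Foxp3-negative nuclei, which makes it at least 5.55-fold lower in the knockout and at least 9.12-fold lower in the control library against a floor of 3 UMIs. With Il21 at that floor the list's medians were the same. Cxcr5, a follicular homing receptor, was among the 2 genes that were higher.

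In the list of type 17 programme genes, 21 of 23 could be measured, and 9 were higher in each library, with 6 lower in the knockout and 5 lower in the control library (median log2 ratio 0.58 and 0.55). Among them Tmem176a, which encodes a membrane protein, had 779 CPM in Cd3-negative and 157 CPM in Foxp3-negative nuclei of the knockout library, and 884 CPM in Cd3-negative and 151 CPM in Foxp3-negative nuclei of the control library. Among partners and paralogs, 7 of 25 measured genes were higher and 3 lower in the knockout library, and 8 were higher and 4 lower in the control library (medians 0.40 and 0.35). Batf3, a paralog of Batf, was at 74.0 CPM in Cd3-negative and 15.8 CPM in Foxp3-negative nuclei of the knockout library, and at 87.8 CPM in Cd3-negative and 15.8 CPM in Foxp3-negative nuclei of the control library. Hif1a went the other way, at 250 CPM in Cd3-negative and 731 CPM in Foxp3-negative nuclei of the knockout library, against 180 CPM in Cd3-negative and 797 CPM in Foxp3-negative nuclei of the control library.

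Of 17 measured upstream receptors and kinases, 2 were higher in the knockout and 3 in the control library, and 6 were lower in each (medians 0.06 and 0.05). The receptors that signal to STAT3 divided. Il23r was at 1483 CPM in Cd3-negative and 355 CPM in Foxp3-negative nuclei of the knockout library, and at 1537 CPM in Cd3-negative and 300 CPM in Foxp3-negative nuclei of the control library. Il21r was at 59.7 CPM in Cd3-negative and 452 CPM in Foxp3-negative nuclei of the knockout library, and at 43.0 CPM in Cd3-negative and 454 CPM in Foxp3-negative nuclei of the control library. Of 14 measured STAT3 targets 3 were higher and 3 lower in each library (medians 0.26 and -0.02). Of 12 AHR targets only 5 could be measured, with 2 higher and 1 lower in each library (medians 0.64 and 0.74). The higher pair was Il22 and Tnfaip2, although Ahr itself was lower in this gate, and the lower gene was Ahrr, the repressor that AHR induces, at 2.60 CPM in Cd3-negative and 11.0 CPM in Foxp3-negative nuclei of the knockout library.

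The genotypes differed little for most of the 6 factors. By a limit of 0.5 on the log2 scale and at least 100 UMIs, Irf4 was lower in knockout than in control Foxp3-positive nuclei and Batf higher in knockout than in control Cd3-negative nuclei, and no other factor passed in any gate. Beside these, 8.43% of 4982 genes were lower and 6.10% higher in the Foxp3-positive gate, 4.19% of 8075 genes lower and 3.10% higher in the Foxp3-negative gate, and 4.13% of 5088 genes lower and 3.64% higher in the Cd3-negative gate. The share of factors past the limit in a gate, 1 of 6 or 1 of 5, rests on a single gene each time.

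Irf4 in Foxp3-positive nuclei had a log2 ratio of knockout over control of -0.55 (-0.89 to -0.21). It was -0.40 with finer states set to control shares, short of the limit, and -1.0 without the deep nuclei, where 15 knockout and 79 control UMIs were left, together under the minimum. By finer state, the Il1rl1 or Klrg1 state had 65.7 CPM in knockout and 116 CPM in control nuclei, and the Foxp3-positive nuclei of no named state 93.2 CPM in knockout and 99.3 CPM in control nuclei. Batf in Cd3-negative nuclei had a log2 ratio of 0.54 (0.22 to 0.87), which was 0.47 without the deep nuclei and 0.44 with nuclei weighted equally. Batf was higher in the knockout library in 2 of the 4 finer Cd3-negative states and lower in 2, with 122 CPM in knockout and 72.0 CPM in control nuclei of the Il17a, Il17f or Il22 state and 42.5 CPM in knockout and 57.8 CPM in control nuclei with MHC class II genes. Irf4 in Cd3-negative nuclei lay under the minimum of 100 UMIs, and its ratio of 1.70 (0.82 to 2.71) from 34 knockout and 15 control UMIs was 0.43 without the deep nuclei (8.42 CPM in the knockout and 6.33 CPM in the control library). Moreover, 14.7% of the 34 UMIs were in 1 nucleus. B-cell and plasma-cell markers summed to 292 CPM in knockout and 29.7 CPM in control nuclei of this gate. Of the 450 knockout marker UMIs 419 were Jchain, and Ms4a1 was at 0 in both libraries. The markers were higher in the knockout library in the other gates too, at 158 CPM against 33.3 CPM in Foxp3-positive and 265 CPM against 134 CPM in Foxp3-negative nuclei. Without the nuclei that held such a marker, Irf4 was at 21.3 CPM in knockout and 6.63 CPM in control Cd3-negative nuclei. The cause of the Irf4 difference was not tested.

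Rora was higher in knockout than in control Foxp3-negative nuclei by a log2 ratio of 0.31 (0.27 to 0.34), under the limit. It lay between 0.21 and 0.32 over 12 alternatives, some of which, such as changes to the Cd3-negative gate, could not move it. Rora was higher in the knockout library in 6 of 6 finer states, which are parts of the same libraries. In the Cd3-negative gate the Rora ratio was 0.12 (0.07 to 0.16). In Foxp3-positive nuclei it was 0.13 (0.07 to 0.19) but turned to -0.23 without the deep nuclei. Stat3 showed 0.17 (0.09 to 0.26) in Foxp3-positive, 0.16 (0.10 to 0.21) in Foxp3-negative and 0.23 (0.12 to 0.35) in Cd3-negative nuclei. These Stat3 ratios were positive in every alternative run, among them runs that could not move the ratio of a given gate. Maf showed -0.20 (-0.31 to -0.09) in Foxp3-positive, -0.18 (-0.25 to -0.11) in Foxp3-negative and -0.26 (-0.44 to -0.08) in Cd3-negative nuclei. Without the deep nuclei Maf in Foxp3-negative nuclei was at 646 CPM in both libraries, and the Foxp3-positive ratio was -0.07. For Ahr the intervals took in 0 in both T-cell gates, with 0.15 (-0.13 to 0.43) in Foxp3-positive and 0.03 (-0.13 to 0.19) in Foxp3-negative nuclei. The Foxp3-positive value passed the limit, at 0.69, without the deep nuclei (189 CPM from 45 UMIs in knockout and 118 CPM from 72 UMIs in control nuclei), and at 0.54 without nuclei holding Kit or Il1r1. In Cd3-negative nuclei Ahr was at 0.37 (0.02 to 0.71), which turned to -0.13 without nuclei holding a T-cell marker.

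**Figure D3:**
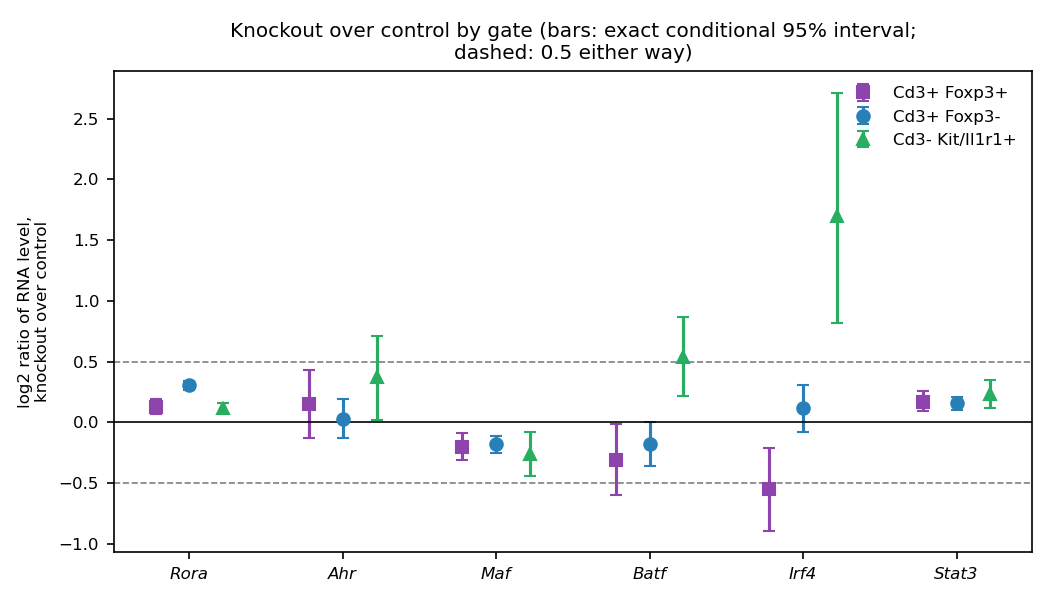
Log2 ratio of RNA level, knockout over control, for each factor in the 3 gates (purple squares, blue circles and green triangles); bars are exact conditional 95% intervals and dashed lines mark 0.5 either way. Irf4 and Batf lie below 0 in Foxp3-positive and above 0 in Cd3-negative nuclei, and the widest bar, Irf4 in Cd3-negative nuclei, rests on 49 UMIs.

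The surrounding lists were counted by the same limit, beside the shares of all genes just given for each gate. Of type 17 programme genes 1 was higher and 2 lower of 14 in Foxp3-positive, 2 higher and 2 lower of 19 in Foxp3-negative, and 1 higher and none lower of 15 in Cd3-negative nuclei. IRF4, BATF and MAF targets gave 1 higher and 2 lower of 16 in Foxp3-positive, none higher and 2 lower of 17 in Foxp3-negative, and 3 higher and none lower of 11 in Cd3-negative nuclei, where 3.64% of all genes were higher. AHR targets were higher in 2 of 5 genes in Foxp3-negative nuclei, where 3.10% of all genes were, among them Il22 at 880 CPM in knockout and 542 CPM in control nuclei, and in none of 3 and none of 4 in the other gates, with none lower. STAT3 targets had a single gene lower of 13 in Foxp3-positive nuclei and none past the limit of 14 and 11 in the other gates. Partners and paralogs had 1 gene higher of 20 in Foxp3-positive nuclei and none of 25 and 23 in the others, and upstream receptors and kinases 1 higher and 1 lower of 15 in Foxp3-positive, none of 17 in Foxp3-negative and 1 lower of 13 in Cd3-negative nuclei.

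Accessibility was read in peaks called in both libraries (shared peaks), in fragments scaled to a total of 1000000 in shared peaks of the gate and library (FPM). Near the 6 genes 129 peaks were shared, of which 109 had at least 50 fragments over the Cd3-negative and Foxp3-negative gates. In Cd3-negative nuclei 45 of these 109 peaks were lower and 2 higher than in Foxp3-negative nuclei of both libraries, past a log2 ratio of 1. Over all 61623 such peaks 12.1% were lower and 14.6% higher. Against Foxp3-positive nuclei 29 of 85 peaks were lower and 1 higher, where 7.50% of all peaks were lower and 13.8% higher. Between Foxp3-positive and Foxp3-negative nuclei none of 112 peaks passed, where 0.317% of all peaks were higher and 0.203% lower. Regulatory T-cell nuclei without a caught Foxp3 UMI would narrow this comparison too. Neighbouring peaks of a gene are not independent of each other.

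**Figure D4:**
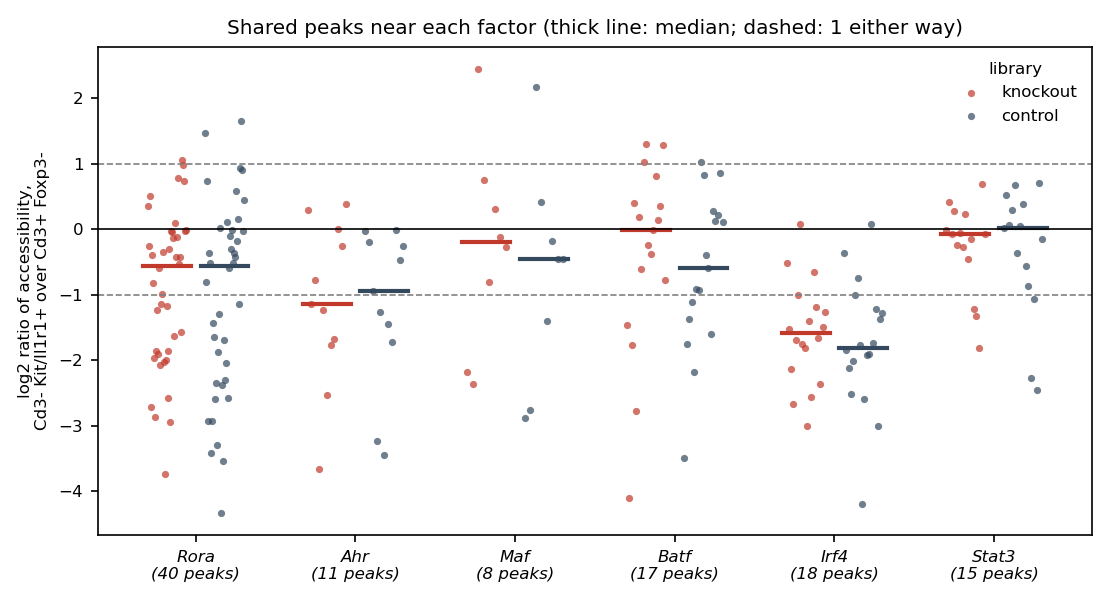
Log2 ratio of accessibility, Cd3-negative over Foxp3-negative nuclei, of each shared peak near the 6 factors (knockout red, control dark blue, the same peaks in both); thick lines are medians and dashed lines mark 1 either way. Peaks of Irf4 lie lowest as a group, with medians of -1.59 in the knockout and -1.81 in the control library, while those of Stat3 centre near 0.

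Irf4 had the highest share of lower peaks, 15 of the 18 tested. All shared peaks of its region summed to 64.7 FPM in Cd3-negative and 167 FPM in Foxp3-negative nuclei of the knockout library, and to 62.6 FPM in Cd3-negative and 188 FPM in Foxp3-negative nuclei of the control library. The log2 ratio of these sums was -1.36 (-1.57 to -1.16) in the knockout and -1.59 (-1.79 to -1.39) in the control library. The peak on the Irf4 start site (mm10, chr13:30748945-30749382, first exon) was at 6.84 FPM in Cd3-negative and 14.0 FPM in Foxp3-negative nuclei of the knockout library, and at 6.23 FPM in Cd3-negative and 12.8 FPM in Foxp3-negative nuclei of the control library. The strongest distal peak, in an intron of Gm29675 43.2 kb downstream (chr13:30791894-30792890), was at 10.5 FPM in Cd3-negative and 30.1 FPM in Foxp3-negative nuclei of the knockout library, and at 12.7 FPM in Cd3-negative and 33.1 FPM in Foxp3-negative nuclei of the control library.

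Start-site peaks of the other factors differed less between the gates. For Stat3 the start-site peak (chr11:100939244-100940254) was at 143 FPM in Cd3-negative and 149 FPM in Foxp3-negative nuclei of the knockout library, and at 119 FPM in Cd3-negative and 153 FPM in Foxp3-negative nuclei of the control library. That of Batf (chr12:85686156-85687084) was at 33.6 FPM in Cd3-negative and 39.8 FPM in Foxp3-negative nuclei of the knockout library, and at 30.9 FPM in Cd3-negative and 40.6 FPM in Foxp3-negative nuclei of the control library. Log2 ratios for the start-site peaks of Ahr (chr12:35534656-35535432), Maf (chr8:115707515-115708310) and the downstream start of Rora (chr9:69289387-69290273) lay between -0.13 and 0.00 in the knockout and between -0.46 and -0.02 in the control library. No peak of either library was called at the first start of Rora. The promoter sequences of Irf4, whose start-site peak passed the limit, and of Batf and Stat3, whose start-site peaks were lower by less than it, are shown for comparison from RefSeq (GRCm38.p6), 250 bases before to 50 after the start, each lying inside the named peak. Of the 6 genes 4 had an entry. Capitals mark the letters GCGTG on either strand, the core of the AHR site.

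Irf4, chr13:30748983-30749282, plus strand: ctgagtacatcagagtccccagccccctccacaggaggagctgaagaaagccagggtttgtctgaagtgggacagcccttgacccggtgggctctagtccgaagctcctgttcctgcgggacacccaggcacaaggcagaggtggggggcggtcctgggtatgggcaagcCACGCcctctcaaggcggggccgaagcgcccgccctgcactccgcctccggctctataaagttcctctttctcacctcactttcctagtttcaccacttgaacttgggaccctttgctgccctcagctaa
Batf, chr12:85686470-85686769, plus strand: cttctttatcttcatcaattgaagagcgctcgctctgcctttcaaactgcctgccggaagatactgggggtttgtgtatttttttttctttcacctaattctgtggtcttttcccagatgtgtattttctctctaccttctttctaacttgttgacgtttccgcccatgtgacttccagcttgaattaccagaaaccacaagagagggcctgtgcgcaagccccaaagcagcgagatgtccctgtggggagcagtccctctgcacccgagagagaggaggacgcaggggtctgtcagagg
Stat3, chr11:100939491-100939790, minus strand: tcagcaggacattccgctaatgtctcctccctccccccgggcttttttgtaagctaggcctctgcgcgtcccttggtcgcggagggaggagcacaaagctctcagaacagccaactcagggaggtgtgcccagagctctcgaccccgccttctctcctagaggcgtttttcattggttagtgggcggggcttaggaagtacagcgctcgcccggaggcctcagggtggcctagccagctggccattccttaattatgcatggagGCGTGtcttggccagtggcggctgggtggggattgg

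GCGTG occurred once in the Irf4 and once in the Stat3 window and not in the Batf window, and 32.4% of all 32851 promoters of this length hold it. None of the 3 windows held TGANTCA (AP-1, 7.81% of promoters), AGGTCA (ROR core, 16.3%) or TTCNNNGAA (STAT, 8.30%) on either strand, where N is any base. The Irf4 window had 61.0% G or C, the Stat3 window 60.7% and the Batf window 49.7%.

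Rora showed RNA and intragenic accessibility going opposite ways. Its RNA was higher in the Cd3-negative gate, yet 16 of 40 tested peaks were lower there and none higher. Of these 16, 15 lay among the 21 peaks 250 to 510 kb downstream of the first start, in introns, bounds that were set after the values were seen. Peaks of that stretch summed to 100 FPM in Cd3-negative and 248 FPM in Foxp3-negative nuclei of the knockout library, and to 91.7 FPM in Cd3-negative and 253 FPM in Foxp3-negative nuclei of the control library. The 16 peaks farther downstream, around the downstream start, summed to 296 FPM in Cd3-negative and 300 FPM in Foxp3-negative nuclei of the knockout library, and to 286 FPM in Cd3-negative and 308 FPM in Foxp3-negative nuclei of the control library. The strongest peak of the upstream stretch (chr9:69034104-69035032) was at 34.2 FPM in Cd3-negative and 67.9 FPM in Foxp3-negative nuclei of the knockout library, and at 28.0 FPM in Cd3-negative and 69.5 FPM in Foxp3-negative nuclei of the control library. An intronic peak beyond the downstream start ran the other way (chr9:69319449-69320698), with 50.7 FPM in Cd3-negative and 24.5 FPM in Foxp3-negative nuclei of the knockout library, and 42.6 FPM in Cd3-negative and 22.3 FPM in Foxp3-negative nuclei of the control library. Its log2 ratios of 1.05 in the knockout and 0.93 in the control library straddled the limit.

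**Figure D5:**
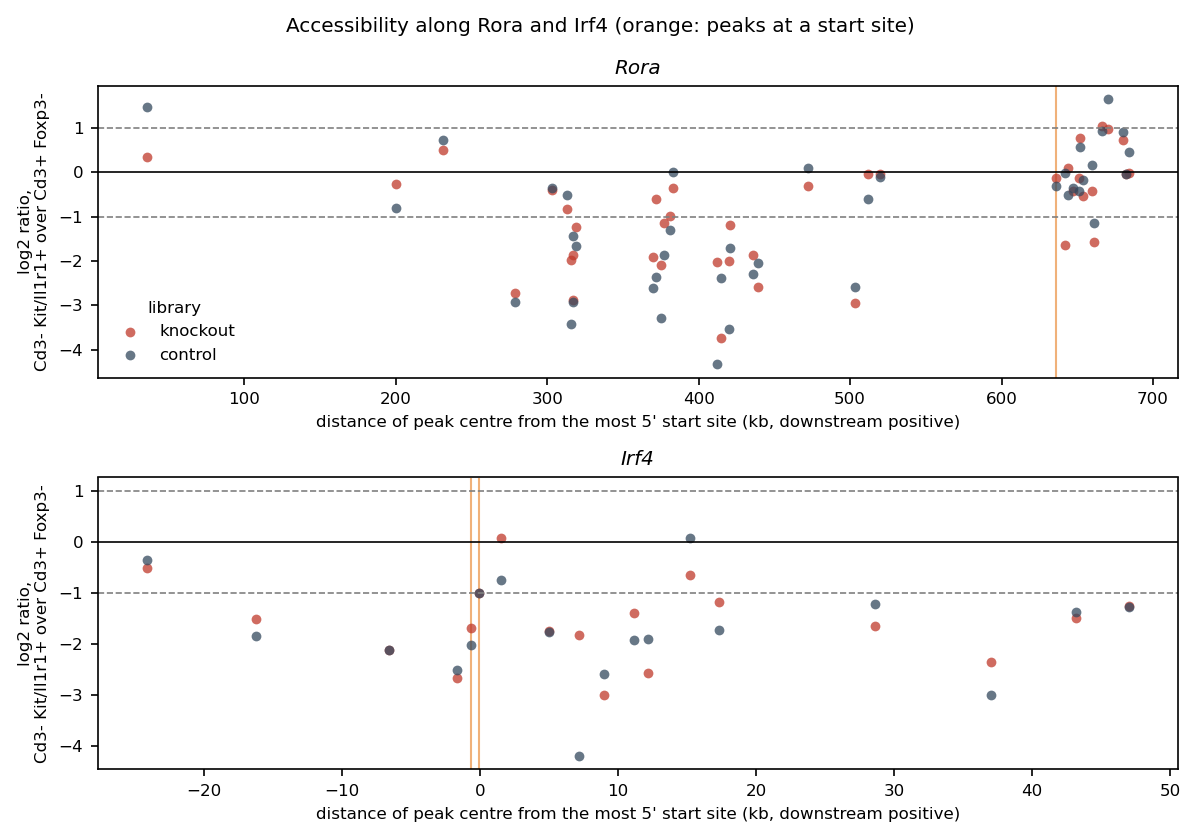
Log2 ratio of accessibility, Cd3-negative over Foxp3-negative nuclei, of shared peaks along Rora (top) and Irf4 (bottom), by distance in kb from the most 5′ start site; red points are the knockout and dark blue the control library, orange lines mark start-site peaks and dashed lines 1 either way. In Rora 15 of the 16 lower peaks lie between 250 and 510 kb, and in Irf4 15 of 18 peaks are lower in both libraries.

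At Ahr 5 of 11 peaks were lower, all of them upstream of the start in introns of Gm48236, an antisense gene. The one with the lowest knockout ratio (chr12:35569807-35570794) was at 0.285 FPM in Cd3-negative and 5.36 FPM in Foxp3-negative nuclei of the knockout library, and at 0.519 FPM in Cd3-negative and 6.04 FPM in Foxp3-negative nuclei of the control library. Maf had 2 lower and 1 higher of 8 peaks. The higher one (chr8:115733834-115734882, intergenic, 26.6 kb upstream) was at 10.3 FPM in Cd3-negative and 1.86 FPM in Foxp3-negative nuclei of the knockout library, and at 8.83 FPM in Cd3-negative and 1.93 FPM in Foxp3-negative nuclei of the control library. A peak 35.1 kb upstream (chr8:115742386-115743309) was at 3.70 FPM in Cd3-negative and 19.7 FPM in Foxp3-negative nuclei of the knockout library, and at 3.38 FPM in Cd3-negative and 23.7 FPM in Foxp3-negative nuclei of the control library. Nearby sites of 1 gene thus moved in opposite directions, in both libraries. Batf had 4 lower and 1 higher of 17 peaks, with 2 of the lower ones in the neighbouring gene Jdp2. Stat3 had 3 lower of 15, all within the gene. Gene-level RNA of Rora, Ahr, Maf and Stat3 overlaps an antisense annotation (Gm15511, Gm48236, Gm15655 and Stat5a), and reads of such partners cannot be told apart where counting ignored strand, which is not given in the sources used here.

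Between genotypes the same peaks were read with the smaller limit. In Foxp3-positive nuclei 2 of 56 tested peaks (3.57%) were higher and 9 (16.1%) lower in knockout than in control past a log2 ratio of 0.5, where 6.15% of all peaks were higher and 6.32% lower. In Foxp3-negative nuclei 4 of 102 (3.92%) were higher and 9 (8.82%) lower, where 7.76% of all were higher and 4.30% lower, and in Cd3-negative nuclei 8 of 46 (17.4%) were higher and 4 (8.70%) lower, where 4.93% of all were higher and 5.03% lower. The shares lower in both T-cell gates, and those in either direction in Cd3-negative nuclei, lay above the shares of all peaks. The shares higher in both T-cell gates lay below them. Each of these shares rests on few peaks, and neighbouring peaks of a gene are not independent, so no difference from all peaks was established. Without the deep nuclei 8 peaks could be tested in the Foxp3-positive gate, of which 1 was lower, and in Cd3-negative nuclei 4 of 38 were higher. Summed over its region, Irf4 was at 159 FPM in knockout and 201 FPM in control Foxp3-positive nuclei, a log2 ratio of -0.34 (-0.53 to -0.15) beside -0.55 for its RNA. The sums of Ahr (-0.29, -0.49 to -0.09) and Rora (-0.15, -0.25 to -0.04) were also lower in this gate. Their RNA ratios there were 0.15 for Ahr and 0.13 for Rora. Intervals for the sums of Maf, Batf and Stat3 took in 0. In Foxp3-negative nuclei Irf4 was at 167 FPM in knockout and 188 FPM in control nuclei (-0.18, -0.28 to -0.07), opposite in sign to its RNA ratio of 0.12. In Cd3-negative nuclei Irf4 was at 64.7 FPM in knockout and 62.6 FPM in control nuclei (0.05, -0.22 to 0.32). Around Maf the sums were 101 FPM in knockout and 79.2 FPM in control Cd3-negative nuclei (0.35, 0.13 to 0.58), opposite in sign to its RNA ratio of -0.26. Rora, whose RNA ratio was 0.31 in Foxp3-negative nuclei, summed to 567 FPM in knockout and 581 FPM in control nuclei there (-0.04, -0.09 to 0.02).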

How the data were processed

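Single-nucleus RNA and accessibility counts of 1 knockout and 1 control library were used. The deposited matrices hold whole-number counts that the authors made with Cell Ranger ARC 2.0.1 on mm10, per the submitters' processing notes, with no normalization. Gene values are UMI counts. Peak counts were even in 90.7% of knockout and 91.7% of control values, so fragments were taken as the count per nucleus and peak divided by 2 and rounded up, and both levels and ratios of peaks use these fragments in place of the raw counts first planned. Filters before deposit were not given in the sources used.

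A nucleus was kept with 500 UMIs or more, 300 genes or more and no more than 10% of UMIs from mitochondrial genes, and 45 knockout and 47 control barcodes failed this. Doublets were not called. Gates used at least 1 UMI of Cd3d, Cd3e or Cd3g, of Foxp3, and of Kit or Il1r1, and left 348 knockout and 685 control nuclei outside. The median kept nucleus held 2302 UMIs in the knockout and 2007 UMIs in the control library. In the Foxp3-positive gate the medians were 4816 UMIs in knockout and 2866 UMIs in control nuclei, in the Foxp3-negative gate 2748 UMIs in knockout and 2101 UMIs in control nuclei, and in the Cd3-negative gate 2108 UMIs in knockout and 2004 UMIs in control nuclei. Counts were summed per gate and library. Sums have exact Poisson intervals, shares exact Clopper-Pearson intervals after thinning, and log2 ratios (pseudocount 0.5 UMI or fragment) exact conditional intervals, all at 95%. With no replicates there is no p-value. Peaks of the 2 libraries that overlapped by at least 1 base were merged, 85.8% of knockout and 87.7% of control peaks. Positions are 1-based, and annotation is GENCODE vM21 on the same assembly. Ratio and interval code was tested on simulated Poisson counts. Python 3 with numpy, scipy and pandas was used.

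The 6 genes, the 6 gene lists and the markers were chosen with earlier results of these data known. The text names the 6 genes throughout, up to 2 measured genes at either end of a list, and the 3 genes most like each factor. Alternatives changed the gates, the minimum count, the weighting and thinning of nuclei, the centring, and the distance, overlap and minimum fragments of peaks. Leaving out nuclei with B-cell or plasma-cell markers, and Cd3-negative nuclei with T-cell markers, was added after seeing the data. Some items are not reported here.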

Additional observations from a re-analysis of the deposited data

Results flagged for a closer look

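Batf and Irf4 drew attention because their knockout over control log2 ratios pointed in opposite directions in different gates, with counting intervals that excluded 0 on both sides. The difference between gates was not tested, since each genotype had 1 library. Batf was at 0.54 (0.22 to 0.87) in Cd3-negative nuclei and at -0.31 (-0.60 to -0.01) in Foxp3-positive nuclei, and the Foxp3-positive value was -0.01 without the deep nuclei. Irf4 was at 1.70 (0.82 to 2.71) in Cd3-negative nuclei, from 34 knockout and 15 control UMIs, and at -0.55 (-0.89 to -0.21) in Foxp3-positive nuclei. Over its alternatives the Irf4 ratio lay between 0.39 and 1.73 in Cd3-negative nuclei and between -1.0 and -0.40 in Foxp3-positive nuclei.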

How the results depend on the processing

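No paired analysis was possible because each genotype had 1 library and the labels give no replicate pairs. No ratio that passed the limit changed sign, but several smaller ratios did in some alternatives. Knockout over control, Rora in Foxp3-positive nuclei kept its sign in 8 of 12 and Ahr in Cd3-negative nuclei in 11 of 12. Of 480 log2 ratios recomputed, 393 moved by less than their counting interval, and of 324 levels 234 did, while 35 of 36 shares of nuclei moved by more when nuclei were not thinned. The counts of ratios and levels include settings that could not move a value, such as a changed Cd3-negative gate for T-cell levels. Irf4 stayed lower in Cd3-negative than in Foxp3-negative nuclei throughout, between -4.13 and -1.86 in the knockout and between -5.38 and -3.06 in the control library. The number of factors past the limit between these gates was 2, and 1 with Kit alone or centred ratios. For knockout over control it was 1 in Cd3-negative nuclei, 2 with no minimum count, and 0 with Kit alone, equal weights, no deep nuclei or no B-cell or plasma-cell marker nuclei. In Foxp3-positive nuclei it was 1, 2 without nuclei holding Kit or Il1r1, and 0 with at least 2 Cd3 UMIs (Irf4 at -0.44), with states set to control shares (-0.40) or thinned (-0.70, under the minimum count). Without deep nuclei it was 1, Ahr in place of Irf4. In Foxp3-negative nuclei it was 0, and 1 (Batf, -0.57) without nuclei holding Kit or Il1r1.

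Peak counts moved, and the number of peaks tested moved with them. Lower in Cd3-negative than Foxp3-negative nuclei were 45 of 109 peaks, and 22 of 52 within 10 kb. Higher were 2, and 0 of 52 within 10 kb, 6 of 165 within 100 kb, 6 of 128 on deposited counts, 5 of 129 at 10 fragments and 5 of 95 without deep nuclei. Foxp3-positive over Foxp3-negative, of 112, 0 were higher and 0 lower, and 1 of 125 was higher on deposited counts, 1 of 129 at 10 fragments, and 2 higher and 2 lower of 86 without deep nuclei. Knockout over control in Foxp3-positive nuclei, 9 of 56 were lower, and 17 of 84 on deposited counts, 26 of 121 at 10 fragments, 5 of 29 within 10 kb, 15 of 80 within 100 kb and 1 of 8 without deep nuclei; 2 of 56 were higher (3.57%), and 15 of 121 at 10 fragments (12.4%), 1 of 29 within 10 kb and 1 of 8 without deep nuclei. In Foxp3-negative nuclei 9 of 102 were lower, and 14 of 129 at 10 fragments, 5 of 51 within 10 kb and 14 of 147 within 100 kb; 4 were higher, and 2 of 51 within 10 kb and 2 of 83 without deep nuclei. In Cd3-negative nuclei 8 of 46 were higher, and 19 of 105 at 10 fragments and 4 of 38 without deep nuclei; 4 were lower, and 13 of 105 at 10 fragments, 0 of 21 within 10 kb and 8 of 69 within 100 kb. The cause was not tested.

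Over all genes, 724 passed the limit of knockout over control in Foxp3-positive nuclei, against 8791 with no minimum count, 275 without nuclei holding Kit or Il1r1, 151 thinned and 220 without deep nuclei. In Cd3-negative nuclei 395 did, against 9120 with no minimum and 227 thinned, and in Foxp3-negative nuclei 588, against 8839 with no minimum. Cd3-negative over Foxp3-negative, 1390 did, against 4497 with no minimum. Foxp3-positive over Foxp3-negative, 30 did, against 2140 with no minimum, 129 without Kit or Il1r1, 144 with equal weights, 61 thinned and 203 without deep nuclei. Irf4 in Cd3-negative nuclei rests on 49 UMIs, and 1 library per genotype limits every comparison of genotypes.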

Other observations

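In the 348 knockout and 685 control nuclei outside the 3 gates, the 6 factors did not differ between libraries beyond counting error. Rora was at 2302 CPM in control nuclei, near the Foxp3-negative level of that library (2310 CPM). In knockout nuclei it was at 2212 CPM, below the Foxp3-negative level of the knockout library (2855 CPM). Irf4 was at 117 CPM (93.3 to 145) in knockout and 98.9 CPM (82.0 to 118) in control nuclei, far above the Cd3-negative gate, and Maf at 548 CPM in knockout and 547 CPM in control nuclei.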
